A study of Mus musculus with 2 samples.

Results

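The 799 regions described here are H3K4me3 peaks of mouse macrophages that lie between genes and far from any annotated transcript start. Each peak was kept from the authors' replicated list where its nearest edge was over 5 kb from every transcript start of any biotype in GENCODE release M21 and where it overlapped no annotated gene body by 1 bp. They made up 4.71% of the 16957 peaks of that list. A further 554 peaks were as far from a start but lay in a gene, 842 lay 1 to 5 kb from a start, and 14762 lay within 1 kb of a start. No value of the signal was used to choose them.

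The study profiled H3K4me3 by chromatin immunoprecipitation and sequencing (ChIP-seq) in macrophages grown from the bone marrow of C57BL/6J mice, a standard inbred strain. The cells carried no stated genetic change and were unstimulated, and their age and sex are not given. There was 1 group of 2 biological replicates, which came from separate biosamples under the same donor entry, with 10 ng of DNA per library. The labels do not say whether the biosamples were separate animals, so the spread between replicates may be partly technical.

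H3K4me3 is trimethylation of lysine 4 on the tail of histone H3. It is deposited by SET1 and MLL complexes, which are drawn to unmethylated CpG-rich DNA and to transcribing polymerase, and it is best known as the mark of active and poised promoters. Away from promoters it occurs at transcript starts that an annotation lacks, at tRNA genes read by RNA polymerase III, and at lower levels at some active enhancers, where monomethylation of the same residue usually prevails.

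The label of the cells was checked by promoter peaks, that is, peaks within 1 kb of a transcript start. All 8 macrophage markers, among them Csf1r, Spi1, Adgre1 and Mpeg1, had a promoter peak in both replicates' own lists. None of 5 neutrophil, 4 B cell, 4 T cell and 4 fibroblast markers did, and 1 of 3 erythroid markers, the transcription factor gene Klf1, did. Replicate 1's own list held 20031 peaks and replicate 2's held 16376. Sequencing depth is unknown, because the lists carry no read counts.

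The members of highest fold are shown first by sequence, since fold, the authors' own value of each peak's enrichment, ranks them within a list. Each run is the 300 bp around the peak's highest point in GRCm38 (mm10), plus strand, with every CpG in capitals and named by the nearest protein-coding gene. These are the 5 highest:
Cggbp1, chr16:64873558-64873857: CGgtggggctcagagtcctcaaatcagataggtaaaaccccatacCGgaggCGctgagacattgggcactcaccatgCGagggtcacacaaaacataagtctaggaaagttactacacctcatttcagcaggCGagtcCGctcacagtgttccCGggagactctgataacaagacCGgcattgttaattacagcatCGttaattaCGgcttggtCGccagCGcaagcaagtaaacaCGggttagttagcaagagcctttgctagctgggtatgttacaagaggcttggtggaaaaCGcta
Fcgr4, chr1:171038161-171038460: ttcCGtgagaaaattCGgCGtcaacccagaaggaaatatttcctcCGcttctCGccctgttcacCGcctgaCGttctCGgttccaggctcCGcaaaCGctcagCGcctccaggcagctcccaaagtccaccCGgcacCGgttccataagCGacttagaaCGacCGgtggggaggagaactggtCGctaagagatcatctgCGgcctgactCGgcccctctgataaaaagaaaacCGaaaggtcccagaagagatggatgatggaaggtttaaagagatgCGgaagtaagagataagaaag
Pom121l2, chr13:21974446-21974745: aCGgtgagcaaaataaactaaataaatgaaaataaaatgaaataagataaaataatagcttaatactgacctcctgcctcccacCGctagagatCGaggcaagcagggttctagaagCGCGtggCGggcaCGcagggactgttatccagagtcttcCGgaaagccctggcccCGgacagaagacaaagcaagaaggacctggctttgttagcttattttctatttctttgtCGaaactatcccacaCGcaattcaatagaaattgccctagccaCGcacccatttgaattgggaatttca
Dct, chr14:118089686-118089985: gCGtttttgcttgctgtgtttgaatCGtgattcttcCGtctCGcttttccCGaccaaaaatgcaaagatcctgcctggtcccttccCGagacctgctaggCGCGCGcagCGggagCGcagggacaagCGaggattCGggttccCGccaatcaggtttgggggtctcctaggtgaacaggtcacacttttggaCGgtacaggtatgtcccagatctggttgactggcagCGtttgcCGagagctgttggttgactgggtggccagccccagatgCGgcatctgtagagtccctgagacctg
Trp53rkb, chr2:166786454-166786753: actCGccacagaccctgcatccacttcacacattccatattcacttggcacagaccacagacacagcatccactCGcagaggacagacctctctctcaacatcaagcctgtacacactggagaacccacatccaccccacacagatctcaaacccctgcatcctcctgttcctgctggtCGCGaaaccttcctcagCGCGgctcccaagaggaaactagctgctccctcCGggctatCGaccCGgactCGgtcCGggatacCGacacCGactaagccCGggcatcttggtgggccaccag
They held 14, 21, 12, 18 and 14 CpGs in this order. Their CpG observed/expected ratios, the CpG count relative to that of the same bases in random order, were 0.749, 0.972, 0.815, 0.735 and 0.619. The median over all the intergenic peaks was 0.445.

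The range is shown by the window with the highest ratio, near the chromatin remodeler gene Chd7, and by one near Tnfaip3, which encodes the NF-kappaB inhibitor A20:
Chd7, chr4:8646779-8647078: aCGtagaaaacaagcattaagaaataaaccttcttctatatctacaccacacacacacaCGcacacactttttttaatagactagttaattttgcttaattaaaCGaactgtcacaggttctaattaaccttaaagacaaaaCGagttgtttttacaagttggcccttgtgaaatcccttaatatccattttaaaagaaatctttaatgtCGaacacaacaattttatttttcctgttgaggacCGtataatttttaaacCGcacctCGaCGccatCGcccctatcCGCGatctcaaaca
Tnfaip3, chr10:19043653-19043952: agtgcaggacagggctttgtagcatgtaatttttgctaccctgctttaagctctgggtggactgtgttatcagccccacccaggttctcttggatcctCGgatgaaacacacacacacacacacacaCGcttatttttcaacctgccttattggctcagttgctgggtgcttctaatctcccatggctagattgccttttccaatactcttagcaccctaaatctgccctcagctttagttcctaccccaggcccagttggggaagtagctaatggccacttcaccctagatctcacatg
The first had a ratio of 1.47 with 12 CpGs and a GC content of 35%. The second had a ratio of 0.116 with 2 CpGs and a GC content of 49%.

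The intergenic peaks were narrower and lower than promoter peaks. Their median width was 767 bp (quartiles 558 and 1048 bp, extremes 285 and 4213 bp), against 1244 bp within 1 kb of a start. Their median fold was 6.52, with quartiles of 4.71 and 10.7, against 20.6 within 1 kb of a start. Peaks in a gene but as far from a start were alike in both measures, at 736 bp and a fold of 5.69. The distributions overlapped. At or above the promoter median fold lay 53 members (6.63%), and at or above the promoter lower quartile of 11.4 lay 183 (22.9%).

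Applying the rule to each replicate's own list gave 1308 peaks in replicate 1, or 6.53% of its list, and 554 in replicate 2, or 3.38%. The mean share was 4.96 ± 2.23% (SD, n = 2), so the libraries differed widely in the number of such peaks. The median width hardly differed, at 617 bp and 628 bp, a mean of 623 ± 8.13 bp (SD, n = 2). Median widths within 1 kb of a start were 1197 and 959 bp, a mean of 1078 ± 168 bp (SD, n = 2). In both libraries the intergenic median was the smaller, at 0.515 and 0.655 of the promoter median. Wider members had higher folds, with a Spearman rho of 0.606 across the 799 peaks, which share the same alignments.

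**Figure D1:**
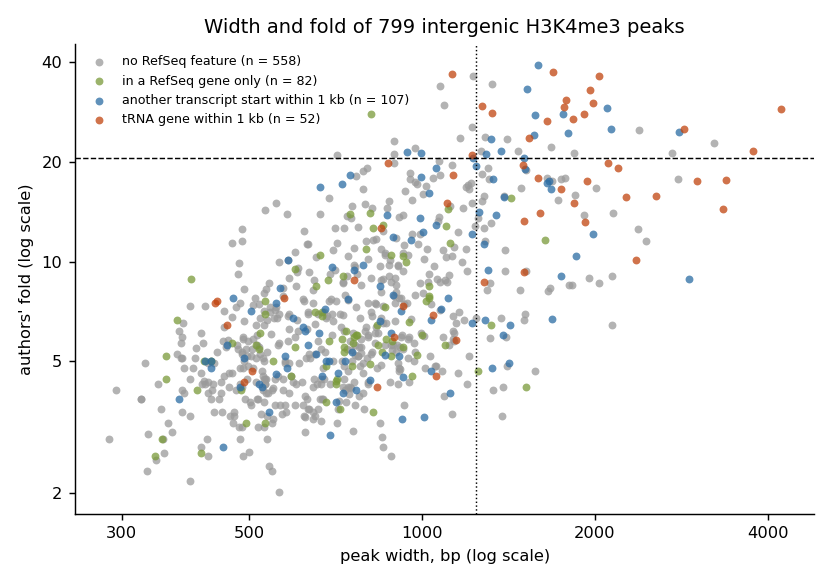
Each point is 1 of the 799 intergenic peaks, by width in bp and the authors' fold, both on log scales, coloured by what the RefSeq annotation holds at or near the peak. The dashed line is the median fold and the dotted line the median width of peaks within 1 kb of a start, and 53 points lie on or above the dashed line.

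Nearly all members were found in replicate 1's own list and fewer in replicate 2's. With an overlap of 1 bp, 780 members (97.6%) were in replicate 1's list, where all replicated peaks stood at 99.5%. In replicate 2's list were 516 (64.6%), where all replicated peaks stood at 88.5%. All 516 were also in replicate 1's list, so 64.6% of members and 88.5% of all replicated peaks were in both lists. A further 264 were in replicate 1's list only, none was in replicate 2's only, and 19 were in neither. Peaks in a gene but far from a start were in both lists in 58.7% of cases, and promoter peaks in 92.2%.

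Presence in both lists went with fold. Over 5 groups of members of rising fold, 13.1%, 40%, 73.8%, 96.8% and 100% of members were in both lists. Promoter peaks within the same ranges of fold gave 14.2%, 32.4%, 69.3%, 97.8% and 100%. In each range the intergenic and the promoter share lay near each other. Members in both lists had a median fold of 8.86, those in replicate 1's list only 4.47, and those in neither 2.65. Members in both lists were wider in replicate 1 in 507 of 516 cases, with medians of 946 and 643 bp and a median ratio of 1.38. At promoter peaks in both lists this ratio was 1.28.

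**Figure D2:**
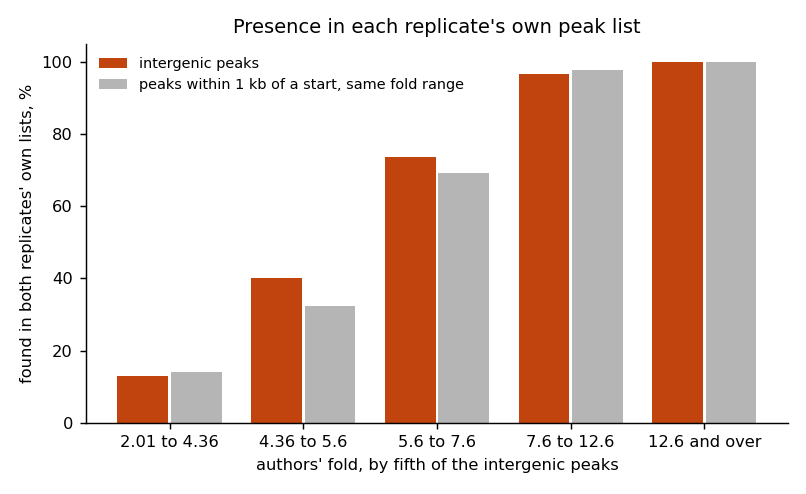
Bars give the percent of peaks found in both replicates' own lists, by range of the authors' fold, for intergenic peaks and for promoter peaks within the same range. The bars rise together, from 13.1% and 14.2% in the lowest range to 100% in the highest for both.

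The 5 members of highest fold that replicate 2's list lacked were all in replicate 1's list. Their nearest protein-coding genes were Tln2, Atp23, Gm21060, Zfp869 and Zfp395. The highest, near the cytoskeletal linker gene Tln2, had a fold of 10.1 and a width of 584 bp, and the other 4 had folds from 7.77 to 8.27. RefSeq places a start of Tln2 at 33 bp from that peak and a start of Zfp869 at 60 bp from another.

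A second annotation, RefSeq for the same assembly, sorted the members into 4 classes. It was brought in after the values were seen. A tRNA gene lay within 1 kb of 52 members (6.51%), whereas it did so for 0.867% of all replicated peaks. Another RefSeq transcript start lay within 1 kb of 107 more (13.4%, and 85.3% of all replicated peaks). The nearest of these starts belonged to a long noncoding RNA in 88 cases, to a coding gene in 17 and to another RNA in 2. A further 82 members (10.3%, and 8.07% of all replicated peaks) lay in a RefSeq gene without such a start, and 558 (69.8%, and 5.79%) had no RefSeq feature. The GENCODE rule already keeps members away from most of these features.

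The tRNA class stood highest in fold and width. Its median fold was 17.0 and its median width 1565 bp, and 49 of its 52 members (94.2%) were in both lists. Over all 147 replicated peaks with a tRNA gene within 1 kb these values were 19.5, 1553 bp and 95.2%. They were thus not particular to intergenic peaks. Members with another start nearby had medians of 7.69 and 923 bp, with 73.8% in both lists. All replicated peaks of that class had 20.8, 1248 bp and 92.4%. Members with no RefSeq feature had medians of 6.10 and 734 bp, with 60.9% in both lists. All replicated peaks of that class had 6.68, 746 bp and 64.1%. Of the 20 members of highest fold, 11 had a tRNA gene within 1 kb, 4 another start, 1 lay in a RefSeq gene and 4 had no RefSeq feature. Of the 27 members of 2000 bp or more, 12 had a tRNA gene within 1 kb.

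The tRNA genes under these peaks are shown because they account for 5 of the 10 highest folds. Each is printed in the sense of the gene, with the match to the B box letters GTTCNANNC in capitals. The B box is the internal promoter element that binds TFIIIC, the factor that brings RNA polymerase III to tRNA genes.
n-TGtcc2, tRNA-Gly, chr1:171037997-171038068, minus strand: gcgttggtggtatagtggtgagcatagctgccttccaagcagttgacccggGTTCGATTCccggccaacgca
n-TMcat8, tRNA-Met, chr13:21975032-21975103, plus strand: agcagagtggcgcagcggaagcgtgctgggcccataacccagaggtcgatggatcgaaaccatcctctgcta
n-TFgaa5, tRNA-Phe, chr14:118089525-118089597, minus strand: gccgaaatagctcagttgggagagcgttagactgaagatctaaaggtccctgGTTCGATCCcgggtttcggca
n-THgtg4, tRNA-His, chr2:122375494-122375565, minus strand: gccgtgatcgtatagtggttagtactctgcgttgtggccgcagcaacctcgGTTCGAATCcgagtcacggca
n-TNgtt9, tRNA-Asn, chr2:18587044-18587117, minus strand: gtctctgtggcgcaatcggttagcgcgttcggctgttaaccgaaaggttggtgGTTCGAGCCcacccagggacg
The letters were matched in 4 of these 5 and not in the tRNA-Met gene. They were matched in 69 of the 72 tRNA genes inside members (95.8%). Of all 403 nuclear tRNA genes 371 (92.1%) held them, as did 97 of the 107 genes of the same intergenic territory that lay in no peak (90.7%). The match therefore did not separate the 2 sets.

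The intergenic territory, the sequence that the rule allows, covered 1214 Mb, or 45.9% of the sequenced bases, and held 189 of the 403 tRNA genes. Of these, 72 (38.1%) lay in 45 members, and 46.7% of all tRNA genes lay in a replicated peak. By each replicate's own list, the share of territory tRNA genes in a peak was 44.4% and 37.0%, a mean of 40.7 ± 5.24% (SD, n = 2). The amino acids differed. None of the 39 territory genes for tRNA-Cys lay in a member, against 72 of the other 150 (48%) and 12 of 15 for tRNA-Leu. On chromosome 6 lie 49 of the 57 tRNA-Cys genes.

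The highest point of the mark lay beside the tRNA genes, although the peaks covered them. The 72 tRNA genes in members had a median length of 73 bp. The peak's highest point was inside a tRNA gene in 0 of the 45 members. The median distance from the middle of a tRNA gene to the highest point was 358 bp (quartiles 269 and 548 bp). At the 9800 replicated peaks that overlap a GENCODE start, the median distance from the highest point to the nearest start was 234 bp. The tRNA distance counts every one of the 72 genes in the 45 members, not only the nearest. The medians are therefore not measured alike and cannot be compared. Of the 72 genes, 51 have an identical copy elsewhere among the 403, and how reads that match several copies were handled is not given in the sources used here.

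The tRNA peaks at the top of the list had high folds in each library's own list as well. The peak near Fcgr4, which encodes an activating Fc receptor, had a fold of 37.4 in the replicated list, 55.1 in replicate 1's list and 20.9 in replicate 2's, above 93.9%, 96.4% and 91.3% of the peaks of each list. It was 1692 bp wide, held 2 tRNA genes and lay 18189 bp downstream of the Fcgr4 start. The peak near Pom121l2, a nucleoporin-like gene, had folds of 53.4 and 21.0 in the replicates and held the tRNA-Met gene shown. The peak near Dct, a pigment enzyme gene with no promoter peak in these cells, had folds of 52.3 and 20.4 and held the tRNA-Phe gene. Those near Shf and Commd3, with folds of 32.9 and 30.7, held the tRNA-His and the tRNA-Asn gene.

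Several of the widest members held several tRNA genes. The widest member, 4213 bp near Hfe2, which encodes the iron regulator hemojuvelin, held 4 tRNA genes and measured 4175 and 4073 bp in the replicates. Next came a peak of 3764 bp near Trim27, which held 5, the most in any member. It measured 3840 bp in replicate 1, and its largest counterpart in replicate 2 measured 2098 bp. The peaks near Olfr750, Olfr1423 and Dhx37, at 3388, 3342 and 3009 bp, held 3, 4 and 3. Of the 10 widest, 4 held no tRNA gene, namely those near Rbx1, Tex44, Olfr693 and Tpt1. The remaining one lay near Olfr1368 and held 2.

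Most members had no other member within 10 kb. Within 10 kb of another member lay 117 (14.6%). Of all replicated peaks, 60.0% had another replicated peak within 10 kb. That share counts neighbours from a much larger set, so it cannot be compared with the share of members. These 117 formed 45 groups of 2 and 9 groups of 3, and 26 of them had a tRNA gene within 1 kb. Within 1 kb of another replicated peak lay 70 members (8.76%), against 45.0% of all replicated peaks. The rule keeps members over 5 kb from every start, and 14762 of the 16957 replicated peaks lie within 1 kb of one. It thus keeps members away from most other peaks, and this difference cannot be told apart from the rule. The median distance to the nearest member was 465470 bp, and to the nearest replicated peak 20640 bp.

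Of the 5 largest groups, 3 were groups of tRNA genes. The first, at chr13:21158934-21173935, spanned 15002 bp upstream of Trim27, a RING-finger protein gene, with 9 tRNA genes and folds from 10.1 to 25.1. The second, at chr19:12004905-12013244 near the olfactory receptor gene Olfr1423, held 5 tRNA genes inside its members, with folds from 7.78 to 30.0. The group at chr1:171033054-171045079, between the Fc receptor genes Fcgr3 and Fcgr4, held 4 tRNA genes inside its members, with folds from 13.3 to 37.4. In both of these spans further tRNA genes lay between the members. The other 2 held none. One lay at chr15:81511499-81524995, with the ubiquitin ligase subunit gene Rbx1 nearest. The other lay at chr6:51169790-51178376, 254294 bp or more upstream of Nfe2l3, a CNC-family transcription factor gene.

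**Figure D3:**
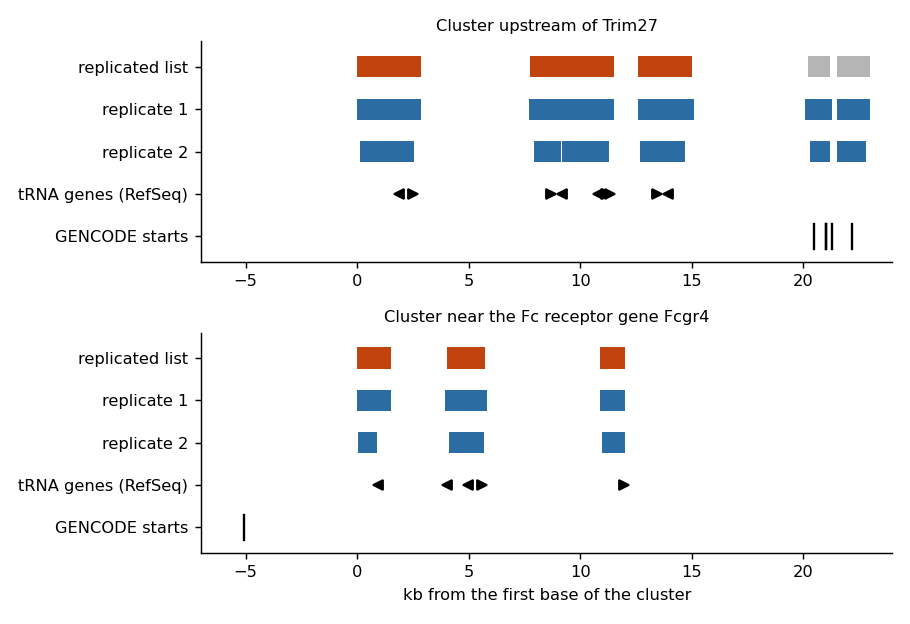
Peaks of the replicated list (members in red, other peaks in grey) and of each replicate's own list (blue) are drawn to scale against kb from the first base of 2 groups of members, with RefSeq tRNA genes as arrows in their direction and GENCODE starts as bars. Each of the 6 members has a peak in both replicates and at least 1 tRNA gene, and replicate 2 has 2 peaks where the middle Trim27 member has 1.

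Several genes had more than 1 member as their neighbours. Of 678 distinct nearest protein-coding genes, 92 were nearest to 2 or more members and 18 to 3 or more. Trim27 had 6, all with a tRNA gene within 1 kb, at distances from 5510 to 43273 bp. Zfp217, a zinc finger gene, also had 6, at 6508 to 72364 bp upstream, and none had a tRNA gene within 1 kb. Their folds were lower, from 4.60 to 9.02, and all 6 were in both lists. Wdr26, a ubiquitin ligase adaptor gene, had 5, and Fos, Chd7 and Nfe2l3 had 4 each.

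Members were spread over all chromosomes but Y. Per Mb of intergenic territory there were 0.658 members. The densest chromosomes were 19, 11 and 13, at 1.56, 1.43 and 1.08 per Mb, and the sparsest with any member was X, at 0.224. Of all replicated peaks on these 4 chromosomes, members made up 5.34%, 4.57%, 7.48% and 4.55%, against 4.71% of the whole list. On 19, 11 and X the share thus lay near that of the whole list, and on 13 it was higher. Of 22 members on X, 3 had Bcor, a corepressor gene, as the nearest coding gene and 3 had its relative Bcorl1. Chromosome Y had 68.7 Mb of such territory and no member.

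The members lay a median of 14299 bp from the nearest start of any kind (quartiles 8624 and 24749 bp). From the nearest coding start the median was 24184 bp. Over 50 kb from any start lay 59 members and over 100 kb lay 8. The farthest were 177205 bp (nearest coding gene Rorb), 176890 bp (Trps1), 148080 bp (Kcnt2), 139812 bp (Nfe2l3) and 118215 bp (Atp10a) away. The folds of the first 3 were 2.34, 2.76 and 2.17, and none was in replicate 2's list. The other 2, of folds 13.8 and 16.6, were in both lists, and RefSeq has the long noncoding RNA Gm32328 at the former and a tRNA gene at the latter.

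Folds on either side of the 5 kb limit overlapped. The 5 members just inside, at 5001 to 5077 bp, had folds of 15.0, 12.3, 2.91, 5.93 and 12.3 and lay nearest to Gm9964, Ddx3x, Serbp1, Sf3a3 and Ovol2. The 5 peaks just outside, at 4973 to 4997 bp, had folds of 7.94, 5.35, 12.7, 27.1 and 6.52 and lay nearest to Sfpq, Arhgef19, Nanos3, Elovl5 and Ptpdc1. In each set 3 of the 5 were in both lists.

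The highest members outside the tRNA class included starts that GENCODE M21 lacks. The highest fold of all, 39.1 near Cggbp1, a CGG repeat-binding protein gene, lay over the start of the RefSeq long noncoding RNA Gm33971. It had folds of 54.4 and 23.2 in the replicates, above 95.8% and 96.0% of their peaks. A fold of 33.1 near Lrrc8d, a volume-regulated channel subunit gene, lay over the start of Gm32276. A RefSeq coding start, the nearest or not, lay within 1 kb of 20 members. These included zinc finger or predicted genes that carry another symbol or none in GENCODE M21, such as Zfp33b, at a fold of 27.8, and AB010352, at 27.6. They also included alternative starts of known genes, such as Osgin1 at 17.7, an oxidative stress gene, Akna at 12.1, Capg at 11.6, an actin-capping protein gene, and Kdm6b at 9.44, an H3K27 demethylase gene that inflammatory signals induce in macrophages.

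When the rule was applied to both annotations, 519 members (65.0%) remained, at a median fold of 6.03 and a median width of 733 bp, with 60.1% in both lists. Of these, 17 had a fold at or above the promoter median. The highest was 36.2, at chr2:166786019-166787245, 5286 bp upstream of Trp53rkb, a kinase gene, with folds of 50.6 and 22.1 in the replicates. Next came 34.4 near Klrb1c, a natural killer cell receptor gene that had no promoter peak here, with folds of 46.9 and 20.9. A fold of 33.9 lay 76793 bp upstream of Chd2, another chromatin remodeler gene, with 50.8 and 20.0. The member near Ptma, which encodes prothymosin alpha, stood at 29.7, with 41.7 and 17.2. All 4 were in both lists, above at least 78.9% of the peaks of the replicated list and at least 79.4% of the peaks of each replicate's own list.

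RefSeq lists experimentally tested enhancers, many of them from the VISTA set of embryonic reporter assays. An enhancer of this catalogue overlapped 15 members (1.88%), whereas one overlapped 0.313% of all replicated peaks. One of the 15 was the peak 17687 bp upstream of Fos, with a fold of 12.6. Another lay near Wnt10a, with a fold of 28.1, and held a tRNA gene as well. The peak near Pax3, a neural crest and muscle gene with no promoter peak in these cells, had a fold of 9.02 and covered part of a tested fragment of that gene. Others lay near Bahcc1, Wee1 and Sorl1, with folds of 17.5, 14.7 and 11.5. Of the 15, 12 were in both replicates' own lists. These genes were named after their values were seen.

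The gene nearest to a member carried a promoter peak in both replicates for 574 members (71.8%), while 49.5% of all 21938 protein-coding genes carried one. Counted by gene, 70.8% of the 678 nearest genes did. Members lay upstream of their nearest coding start in 475 cases and downstream in 324. The rule drops peaks in gene bodies, which lie downstream of starts, so this difference cannot be told apart from the rule. The nearest gene is a neighbour only, and no measurement here links it to the peak.

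Macrophage genes were among the neighbours. Of all protein-coding genes, 3.09% were the nearest coding gene of a member. In the list of macrophage identity genes 8 of 40 were, with 12 members, of which 10 were in both lists. Pparg, a lipid-sensing nuclear receptor gene, had 2 upstream, of folds 6.77 and 3.40, the lower one in replicate 1 only. Klf4 had 2, of folds 6.60 and 9.36, and Klf6 had 2, of 7.52 and 5.26, the higher one in replicate 1 only. Mitf, a regulator of lysosomal genes, had one of fold 9.27 at 113411 bp downstream. Single members lay near Fcgr3 and Tyrobp, at 15.0 and 4.38, and 2 near Fcgr1, at 8.19 and 7.35, where the one near Fcgr3 and the lower one near Fcgr1 had a tRNA gene within 1 kb.

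Of 33 signalling transcription factor genes, 4 were nearest to a member, with 7 members. Fos, a subunit of AP-1 and an immediate-early gene, had 4, including the highest fold near any listed gene. The strongest lay 11242 bp downstream of its start and was 1840 bp wide, with a fold of 21.3, and 31.4 and 11.6 in the replicates. Beside it, 10650 bp from the start, lay a peak of 12.5, and 17687 bp upstream one of 12.6. The fourth, of fold 3.26, was in replicate 1 only. Nfkbia, the gene of the inhibitor that NF-kappaB induces, had one of fold 10.5 at 25854 bp downstream, and Jun, the partner of Fos, one of 8.35 at 163188 bp. Nfkbiz had one of 4.26, in replicate 1 only.

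Of 45 inflammatory response genes, 8 were nearest to a member, with 12 members. Tnfaip3 had 2 upstream, at 27614 and 46176 bp, of folds 14.5 and 4.76, both in both lists. The higher one had 22.0 and 7.05 in the replicates. Zfp36l1 and Zfp36l2, genes of proteins that destabilise cytokine mRNAs, had 2 each, of folds 9.19 and 3.84 and of 9.36 and 8.61. Nr4a1, an immediate-early nuclear receptor gene, had 2, of 5.85 and 4.85. Egr1, Egr3, Ier2 and Malt1 had 1 each, from 3.68 to 7.44. Of the 12 members, 8 were in both lists. Those near Egr1 and Ier2 and the lower ones near Nr4a1 and Zfp36l1 were in replicate 1 only. The cytokine and chemokine genes of the list, Tnf and Il1b among them, had none.

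The other lists had fewer or none. Of 30 interferon-stimulated genes only Ifit1 was nearest to a member, of fold 4.18 in replicate 1 only. Of 34 lysosome and lipid genes 4 were, among them Ctsl, Scd1 and Scd2, whose members had folds from 5.01 to 9.44. The lowest of these, near Scd1, was in replicate 1 only. Of 40 genes of stem and other blood cells 0 were, and of 30 genes of other organs 2 were, Pax3 at 9.02 and Col1a1 at 2.92. The member near Col1a1 was in neither replicate's own list. A gene's chance of being a neighbour depends on the length of the intergenic sequence around it, which these counts do not take into account.

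The sequence around the highest point of the members lay between that of promoters and that of the intergenic territory. The median CpG observed/expected ratio was 0.445 in members, with an interquartile range of 0.318 to 0.585. It was 0.564 within 1 kb of a start, 0.365 at peaks in a gene but far from a start, and 0.132 over 4033982 tiles of 300 bp that cover the territory. In the replicates' own lists the intergenic ratio was 0.428 and 0.476, a mean of 0.452 ± 0.0344 (SD, n = 2), and the promoter ratio 0.564 ± 0.00649 (SD, n = 2). The 2 kinds of peak differed by more than the spread between replicates.

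CpG content rose with fold. Over the same 5 groups of rising fold the medians were 0.347, 0.421, 0.446, 0.473 and 0.564, the last equal to that of promoter peaks. Members with a tRNA gene within 1 kb had 0.657, and those with no RefSeq feature 0.430. CpG-rich windows, with a GC content of at least 50% and a ratio of at least 0.6, made up 14.0% of members, 30.0% of all replicated peaks and 0.379% of tiles. Repeats masked at least 50% of the letters in 3.25% of member windows and in 37.8% of tiles. This held for 1.53% of all replicated peaks and 1.26% of promoter peaks, so members stood above other peaks.

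**Figure D4:**
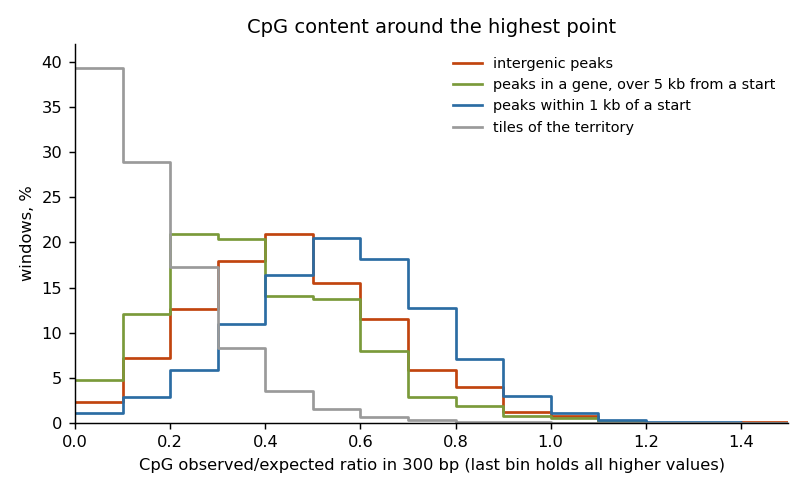
Lines give the percent of 300 bp windows in each bin of the CpG observed/expected ratio, for the 3 kinds of peak and for tiles of the intergenic territory. The intergenic peaks have their median at 0.445, between 0.365 for far peaks in genes and 0.564 for promoter peaks, and the tiles have theirs at 0.132.

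Letters bound by macrophage transcription factors were sought in the same windows on both strands. The following 2 windows show matches in capitals, the first near Fos with the core of the interferon-stimulated element, read on the minus strand, and the second near Rnf19b with GAGGAAG, read on the minus strand, and TGANTCA. The latter had the highest fold, 9.11, among the 8 members with no RefSeq feature that hold both GAGGAAG and TGANTCA.
Fos, chr12:85486314-85486613: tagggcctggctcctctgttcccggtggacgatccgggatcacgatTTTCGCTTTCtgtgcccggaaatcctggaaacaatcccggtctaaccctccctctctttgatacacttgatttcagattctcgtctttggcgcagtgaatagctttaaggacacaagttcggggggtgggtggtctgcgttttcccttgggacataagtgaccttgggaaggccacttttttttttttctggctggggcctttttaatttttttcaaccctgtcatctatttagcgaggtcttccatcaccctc
Rnf19b, chr4:129049194-129049493: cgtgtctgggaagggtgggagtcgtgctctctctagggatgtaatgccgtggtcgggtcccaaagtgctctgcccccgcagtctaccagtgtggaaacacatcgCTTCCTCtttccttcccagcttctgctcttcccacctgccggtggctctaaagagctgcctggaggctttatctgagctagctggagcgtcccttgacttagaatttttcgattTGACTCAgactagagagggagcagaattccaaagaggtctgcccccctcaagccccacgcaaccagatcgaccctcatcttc
The core of the interferon-stimulated element, GAAA followed after 2 bases of any kind by another GAAA, is bound by interferon regulatory factors. GAGGAAG is bound by PU.1, the product of Spi1, and TGANTCA by AP-1.

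The largest difference from promoter peaks among the 12 listed motifs, as a ratio of shares, was for the core of the interferon-stimulated element. It was in 105 members (13.1%), in 5.34% of all replicated peaks, in 4.29% of promoter peaks and in 5.39% of tiles. Far peaks in genes stood at 13.0% and peaks 1 to 5 kb from a start at 11.3%, so peaks away from starts held it at like shares in and outside genes. In the replicates' own lists the intergenic share was 12.1% and 11.0%, a mean of 11.5 ± 0.756%, and the promoter share 4.34 ± 0.310% (SD, n = 2 for each). Counting only matches whose fixed letters lie outside masked repeats, 8.39% of members, 2.26% of promoter peaks and 1.41% of tiles held it. Masked letters cannot match in this count. The median masked share was 32% in tiles and 9% in members, so masking lowers the tile share more. With masked letters included, the tRNA class held the core in 1.92% and the members with no RefSeq feature in 14.3%. Over the 5 ranges of fold the share lay between 10.2% and 15.6%, without the order seen for CpG content.

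GAGGAAG was in 107 members (13.4%), in 12.9% of all replicated peaks and in 8.16% of tiles. TGANTCA was in 69 (8.64%), in 5.44% of all replicated peaks and in 8.89% of tiles. In the replicates' own lists it was in 7.58 ± 1.28% of intergenic peaks and in 5.21 ± 0.0121% of promoter peaks (SD, n = 2 for each). The C/EBP letters TTGCNNAA were in 12.6% of members and 10.9% of all replicated peaks. The RUNX letters TGTGGT were in 144 of the 799 members and in 14.8% of all replicated peaks. The NF-kappaB letters, GGGAA followed after 2 bases by CCC, were in 1.88% of members, 1.91% of all replicated peaks and 0.676% of tiles. Outside masked repeats, members and tiles stood at 10.0% and 4.10% for GAGGAAG and at 7.63% and 6.13% for TGANTCA. They stood at 11.4% and 8.61% for the C/EBP letters and at 16.4% and 11.1% for the RUNX letters. Tiles hold more masked letters, so for TGANTCA and the C/EBP and RUNX letters the order of members and tiles depends on the count used.

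Of the letters common at CpG-rich promoters, the GC box GGGCGG was in 150 members (18.8%) and in 23.4% of all replicated peaks, with 18.9 ± 0.187% of intergenic and 24.8 ± 0.325% of promoter peaks in the replicates' own lists (SD, n = 2 for each). It was in 1.94% of tiles. The ETS letters CCGGAAG were in 5.13% of members and 5.14% of all replicated peaks, and the E-box CACGTG in 4.76% and 5.47%. TATAAA was in 10.0% of members, 7.96% of all replicated peaks and 29.6% of tiles. The cyclic AMP element TGACGTCA was in 6 members and the NRF1 element, GCGCA followed at once by TGCGC, in 2, or 0.751% and 0.250%, against 0.395% and 0.124% of all replicated peaks. A match is a description of the letters and shows no binding.

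**Figure D5:**
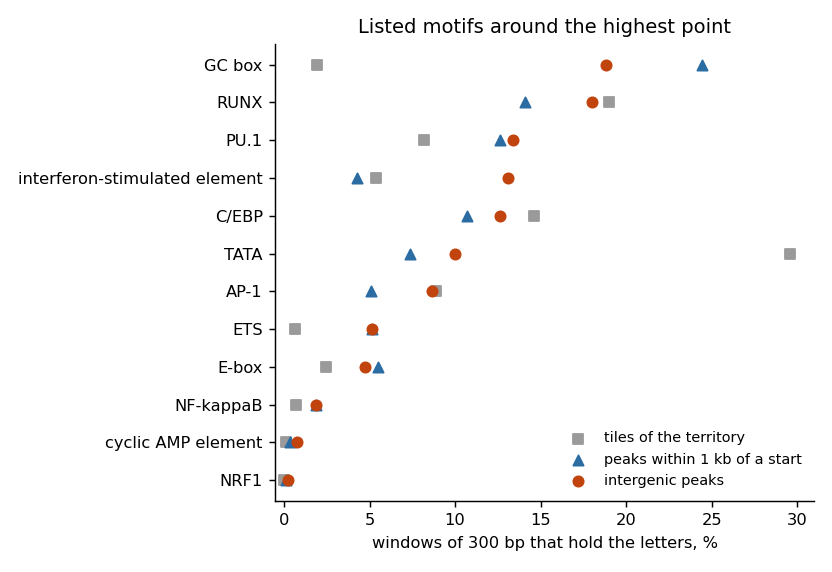
Points give the percent of 300 bp windows that hold each listed motif on either strand, for intergenic peaks, promoter peaks and tiles of the territory. The interferon-stimulated element stands at 13.1% in intergenic peaks against 4.29% in promoter peaks, and the GC box at 18.8% against 24.4%.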

How the data were processed

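H3K4me3 ChIP-seq was read from peak lists of 2 replicates, 1 list pooled over both and 1 replicated list, all in mm10. Provenance texts that the authors deposited say that the replicated list was made from the alignments of both replicates, and each replicate's own list and the pooled list were pseudoreplicated. The aligner, peak caller, versions, thresholds and treatment of reads that match several places were not given in the sources used here. The authors give each peak a fold, a ratio whose reference is not stated, and a −log10 p. The deposited offset of its highest point placed the sequence windows. Fold was used only within a list, to rank and describe peaks. Depth is unknown.

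Distances run from the peak edge to GENCODE M21 starts. RefSeq (GRCm38.p6, the same assembly) gave tRNA genes, further starts, and all printed sequences. Calculations used Python 3.11.15, numpy 2.4.6, pandas 2.3.3, scipy 1.17.1 and matplotlib 3.10.9. The distance, membership, overlap and motif routines were checked on simulated data and gave the brute-force answer in all cases. With 1 group there was no test over samples. Members found by the rule in each replicate's own list gave the spread (mean ± SD, n = 2).

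The members and lists were chosen with earlier results of these data known, and the RefSeq classes, the B box, CpG-rich windows and the masked-repeat count after values were seen. Genes named are those nearest to the 10 highest, the 10 widest, the 5 largest groups, the 5 farthest, the 5 highest that replicate 2 lacks, 5 on either side of the 5 kb limit, and listed genes nearest to a member. Genes with several members, those at RefSeq coding starts and Ptma were named after their values were seen. All 252 listed symbols matched a gene, and some chosen by this rule are not reported here. The alternatives tried are other distance limits, peak lists, overlaps, gaps, windows and annotations.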

Additional observations from a re-analysis of the deposited data

How the results depend on the processing

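Of 82 alternative values, 39 stayed within the spread between replicates (for counts, within 1.5 times; for shares found in a list or grouped, within the 95% Wilson interval, which covers counting error only) and 43 did not. The number of members was 266 at a limit of 20 kb, 1510 against protein-coding genes only, 73 among peaks at or above the median −log10 p, 519 also outside RefSeq, and from 554 to 1308 in single replicates' lists. The median width was 734 bp at 20 kb, 662 bp in the pooled list, 1467 bp among the stronger peaks, 733 bp outside RefSeq, 752 bp without tRNA neighbours, and from 617 to 628 bp in single replicates' lists. The median fold was 22.8 among the stronger peaks. With only the stronger peaks of each replicate's list, 15.9% of members were found in replicate 1's and 7.88% in replicate 2's. In replicate 2's list the share was 58.1% with an overlap of at least 50% of the member, 58.1% with a reciprocal one, 60.9% at 20 kb and 60.1% outside RefSeq. The share with another member nearby was 21.7% within 25 kb, 26.0% within 50 kb, 7.65% with peaks joined over 1 kb, 11.0% outside RefSeq and 12.0% without tRNA neighbours. The nearest gene was marked for 72.5% at 2 kb, 73.0% at 10 kb, 72.2% at 20 kb, 73.0% in the pooled list, 74.0% among the stronger peaks, 72.5% with promoters of 2.5 kb, 65.6% with the 5′ end of the gene only, 74.6% outside RefSeq, 72.7% without tRNA neighbours, and 72.7% in both single replicates' lists. The backgrounds with the other 2 promoter definitions were 50.3% and 46.1% of coding genes. The median CpG ratio was 0.622 among the stronger peaks. GAGGAAG was in 14.3% at 2 kb, 14.1% in the pooled list, 2.74% among the stronger peaks, 30.5% with windows of 600 bp, 38.8% over whole peaks, 14.6% outside RefSeq, and from 14.1% to 15.1% in single replicates' lists. The spread between replicates rests on 2 lists. It was small for the median width, at 617 and 628 bp, and for the marked share, at 72.7% in both. For these, small shifts also fell outside it. The settings that use RefSeq or tRNA genes were chosen after seeing the data. No paired analysis was possible because there is only 1 group.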

Other observations

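The nearest annotated start of any biotype was that of a protein-coding gene for 365 of the 799 intergenic peaks (45.7%). It was that of a processed pseudogene for 146 (18.3%) and of a long intergenic noncoding RNA for 140 (17.5%). Small RNA genes were the nearest less often, with 26 peaks nearest to a miRNA gene, 21 to an snRNA gene and 14 to a snoRNA gene.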
